A study of Mus musculus with 9 samples.

Results

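The plasma carrier genes described here and their partners are Alb, Afm, Gc, Ttr, Rbp4, Serpina6, Ahsg, Itih1, Itih2 and Ambp. They were chosen by symbol, as constitutive plasma proteins of the negative acute phase kind, and make up 10 of the 31964 genes of the table. All 10 passed the filter on low values, as did 11086 genes in all. RNA sequencing of liver tissue gave 3 libraries each for the groups M (replicates 24, 26 and 27), A-C (replicates 6, 9 and 12) and C (replicates 2, 3 and 4). The series concerns the NIAAA mouse model, in which liquid diets containing alcohol are fed, with or without the drug magnesium isoglycyrrhizinate (MgIG). The labels do not state the diet, drug, age or sex behind each letter, so the groups were compared by letter. The samples are labelled as liver with the cell type hepatocyte, but markers of other liver cells were detected, so the libraries are described as bulk liver. All libraries carry the strain label C57BL6J except C replicate 4, which reads C57BL7J. No source states whether the samples of 1 group are separate animals, and the p-values therefore reflect the spread between samples, which may be technical. The labels give no batch either, so handling and group cannot be told apart.

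Hepatocytes secrete these proteins into plasma. Albumin binds fatty acids, bilirubin and drugs, the Gc product carries vitamin D and binds actin, and afamin carries vitamin E. Transthyretin carries thyroxine and the retinol-binding protein made from Rbp4, and the Serpina6 product carries glucocorticoids. Fetuin-A, from Ahsg, keeps calcium phosphate in solution. Ambp encodes alpha-1-microglobulin and bikunin, and bikunin is joined to heavy chains made from Itih1 and Itih2 to form inter-alpha-trypsin inhibitors. A negative acute phase protein is one whose plasma level drops in inflammation, when the liver makes positive acute phase proteins such as serum amyloid A under control of interleukin 6 and STAT3. Liver transcription of many plasma protein genes depends on the C/EBP family.

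RefSeq promoter windows of 300 bases, from 250 bases before a gene start to 50 after it (build GRCm38.p6), matched 8 of the 10 genes with 9 windows. Those of 3 genes are shown because their mean levels differ in order: Alb was lowest in M, Ahsg was highest in A-C and Ambp was lowest in C. Capitals mark TTNNGNAA, a motif of the C/EBP kind. Each motif was searched on both strands. The windows are chr5:90460620-90460919 (plus strand) for Alb, chr16:22891765-22892064 (plus strand) for Ahsg and chr4:63154123-63154422 (minus strand) for Ambp.
Alb: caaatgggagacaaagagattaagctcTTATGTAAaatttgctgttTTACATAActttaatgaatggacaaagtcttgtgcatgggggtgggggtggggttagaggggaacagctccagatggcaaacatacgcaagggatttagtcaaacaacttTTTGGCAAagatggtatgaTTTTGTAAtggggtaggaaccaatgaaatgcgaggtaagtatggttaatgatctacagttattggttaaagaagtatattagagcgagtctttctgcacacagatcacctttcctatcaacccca
Ahsg: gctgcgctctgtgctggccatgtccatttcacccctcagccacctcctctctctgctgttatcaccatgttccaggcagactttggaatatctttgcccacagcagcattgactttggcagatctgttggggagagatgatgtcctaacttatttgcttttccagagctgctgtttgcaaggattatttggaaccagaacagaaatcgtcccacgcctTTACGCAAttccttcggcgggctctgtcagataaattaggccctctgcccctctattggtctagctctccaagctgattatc
Ambp: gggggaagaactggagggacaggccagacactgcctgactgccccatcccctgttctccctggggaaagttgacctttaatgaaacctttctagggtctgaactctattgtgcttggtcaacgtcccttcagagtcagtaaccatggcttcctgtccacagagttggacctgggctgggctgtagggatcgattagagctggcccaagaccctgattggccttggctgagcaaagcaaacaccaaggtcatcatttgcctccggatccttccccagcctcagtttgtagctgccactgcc
The Alb window held TTNNGNAA at 4 places and the Ahsg window at 1, and the Ambp window did not hold it. It was in 8 of the 9 windows of these genes and in 40.7% of all 32851 windows. CCAAT was in 6 of 9 windows and in 37.4% of all. TTCNNNGAA, of the kind that STAT proteins bind, was in 0 of 9 and in 8.3% of all, and CAAAGNNCA, of the HNF4 kind, was in 0 of 9 and in 6.36% of all. TATAAA was in 2 of 9 and in 13.6% of all. These letter matches describe the windows and say nothing of binding in these livers.

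The reads behind the deposited TPM values came to 53879277 to 57046246 per library in M, 52392521 to 65165613 in A-C and 45597163 to 46631110 in C. The fewest reads behind any value of the 10 genes were 3048, for Serpina6, a counting error of 1.81%. The 31 positive acute phase genes took 3.48%, 15.7% and 11.7% of TPM in M replicates 24, 26 and 27, 2.85%, 8.26% and 21.3% in A-C replicates 6, 9 and 12, and 2.14% to 2.31% in C. Mitochondrially encoded genes took 27.6% in C replicate 2 and 11.9% to 15.4% in the other libraries. The TMM scaling, which is meant to even out differences in composition, divided the TPM by 1.07 to 1.10 in M, 1.002 to 1.09 in A-C and 0.867 to 0.902 in C. Scaled fold changes of M and of A-C against C are therefore lower than those in the TPM as deposited. The divisors did not simply follow the acute phase and mitochondrial shares. M replicate 24, with shares of 3.48% and 14.5%, was divided by 1.097, and C replicate 3, with 2.29% and 15.4%, by 0.902. What set the divisors apart was not tested. Levels below are TMM-scaled TPM, given as mean ± SD with n = 3, and a log2 fold change is on the log2(TPM + 1) scale with limma's Benjamini-Hochberg adjusted p over 11086 genes. Hepatocyte markers were all detected and summed to 22617 to 38082 TPM in M, 29977 to 44931 in A-C and 50542 to 56459.8 in C. Apoa1 made up much of this sum, at a mean of 9874 TPM in M, 17534 in A-C and 33839 in C, and the list's median log2 fold change was 0.02 in M against C and 0.09 in A-C against C. Of these 10 markers, 2 were called higher and 1 lower in M against C, 0 higher and 1 lower in A-C against C, and limma called 0 in M against A-C (2 at an unadjusted p under 0.05).

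No gene of the 10 passed limma's adjusted threshold of 0.05 in any comparison. The count was 0 of 10 in M against C, where 16.1% of all tested genes passed, 0 of 10 in A-C against C, where 16.8% passed, and 0 of 10 in M against A-C, where 0.171% passed. At an unadjusted p under 0.05, Alb, Ttr and Serpina6 were lower in M than in C (3 of 10, 35.1% of all genes), whereas in A-C against C Itih1 was higher and both Ttr and Serpina6 were lower (3 of 10, 35.2%). Between M and A-C, Ahsg and Itih2 were lower in M at that level (2 of 10, 11.5%). The median log2 fold change of the 10 genes was -0.30 in M against C, beside 0.05 over all tested genes, -0.05 in A-C against C, beside 0.03, and -0.20 in M against A-C, beside 0.02. In the TPM as deposited the medians were -0.02 beside 0.27, 0.18 beside 0.22 and -0.15 beside 0.06, in the same order of comparisons. There 1 of 10 was called in M against C (Ambp, higher), where 29.6% of all genes were, 2 of 10 in A-C against C (Itih1 and Ahsg, both higher), where 25.2% were, and 0 of 10 in M against A-C, where 0.189% were. The scaled values gave 3 of 10 in M against C with only those groups fitted (17.8% of all genes) or without A-C replicate 12 (22.1%), and 2 of 10 in A-C against C without A-C replicate 6 (18.2%). With a common total without mitochondrially encoded genes, 1 of 10 was called in A-C against C (20.6% of all genes). In bulk tissue, fewer cells of a type and less RNA per cell cannot be told apart.

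**Figure D1:**
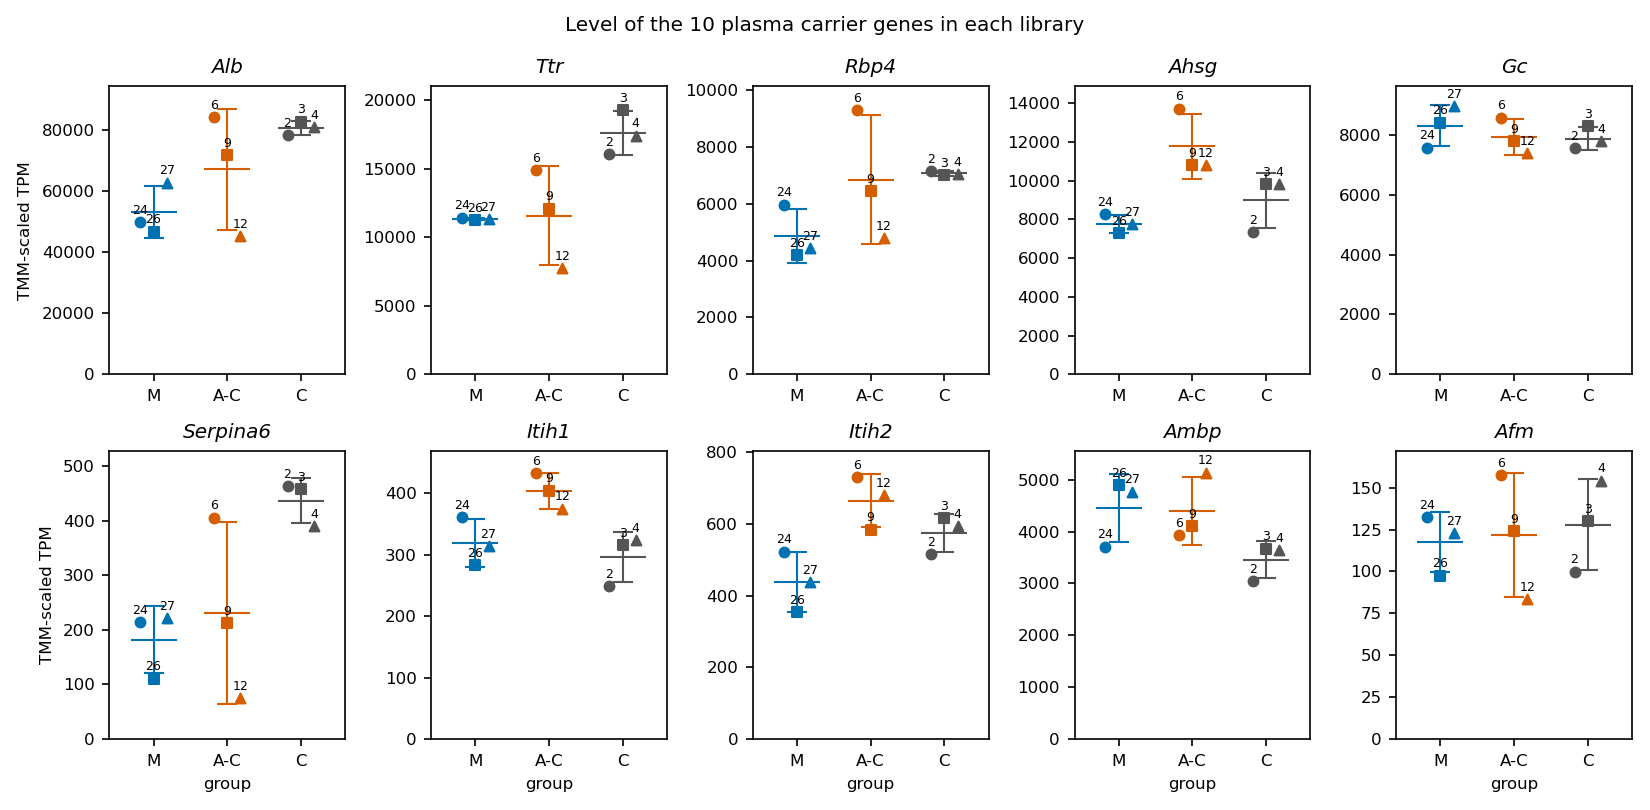
TMM-scaled TPM of the 10 genes in each library, by group, on linear axes that start at 0; points are libraries, numbers their replicates, and bars the group mean ± SD (n = 3). Every M library lies below every C library for Alb, Ttr, Rbp4 and Serpina6, and above them for Ambp.

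The groups did not overlap for 5 genes in M against C, of which Ambp was higher and Alb, Ttr, Rbp4 and Serpina6 were lower; 41.6% of all tested genes did not overlap there. For A-C against C they were 4, with Itih1, Ahsg and Ambp higher and Ttr lower, beside 41.2% of all genes. For M against A-C they were 3, Ahsg, Itih1 and Itih2, all lower in M, beside 16.2% of all genes. These sets changed with the scaling. In the TPM as deposited, Gc and Itih2 were also higher in A-C than in C without overlap, and Ttr overlapped. Gc and Itih1 were then also higher in M than in C, and Rbp4 overlapped. Between M and A-C, Itih1 overlapped. The share of all genes without overlap was not computed for the deposited values. Fold changes in A-C against C had both signs, positive for Ahsg, Gc, Itih1, Itih2 and Ambp and negative for the other 5, with signs that changed with the scaling for Rbp4, Gc and Afm.

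**Figure D2:**
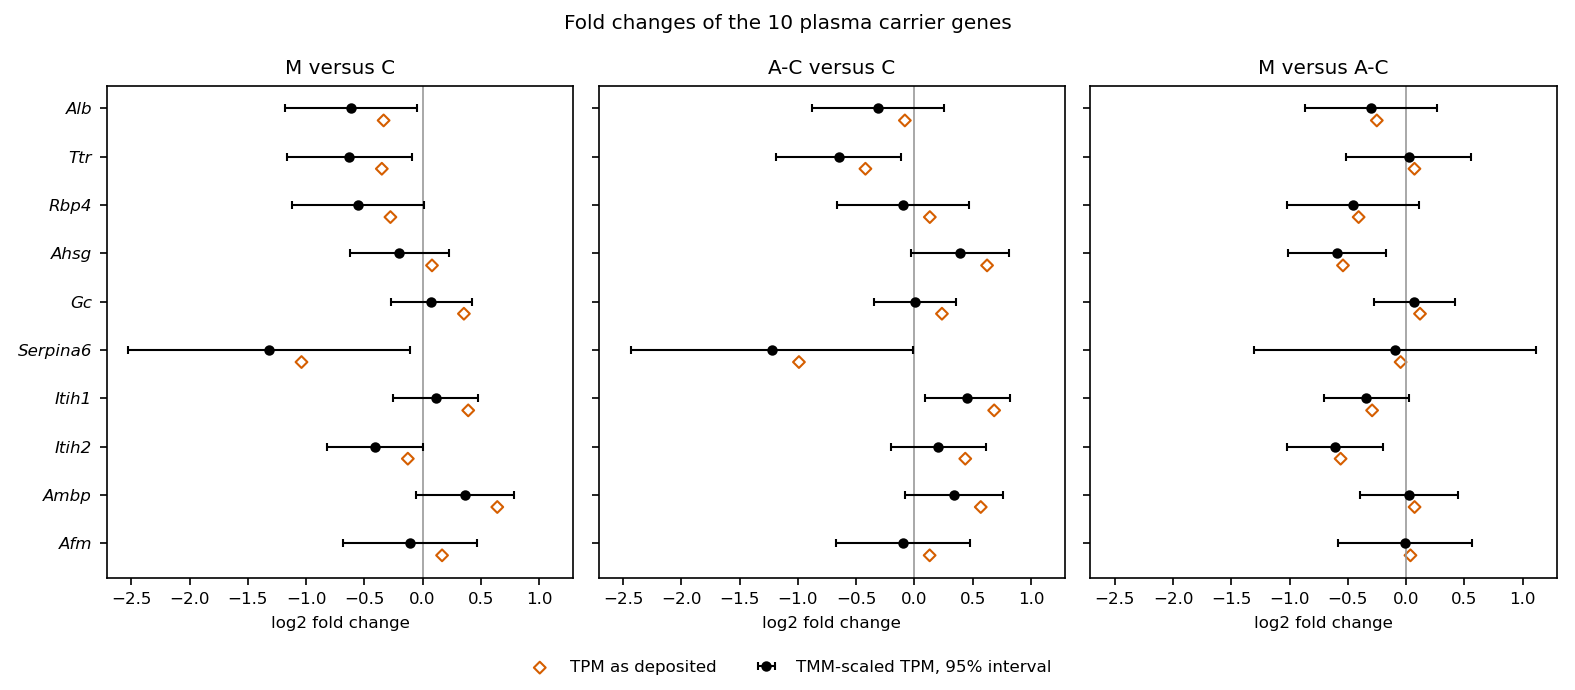
Log2 fold changes of the 10 genes in the 3 comparisons; filled points are TMM-scaled TPM with limma's 95% interval and open diamonds are the TPM as deposited. The interval is widest for Serpina6, and the deposited values lie to the right of the scaled ones in both comparisons with C.

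Alb had the highest mean level of all genes. It stood at 49858, 46762 and 62727 TPM in M replicates 24, 26 and 27, at 84164, 71869.6 and 45294 in A-C replicates 6, 9 and 12, and at 78333.5, 82746 and 80992 in C replicates 2, 3 and 4. All M libraries were below all C libraries, whereas A-C reached above and below C. Means were 53116 ± 8467 TPM in M, 67109 ± 19868 in A-C and 80690.3 ± 2222 in C. The log2 fold change was -0.61 in M against C (SE 0.25, adjusted p = 0.117) and -0.31 in A-C against C (SE 0.25, adjusted p = 0.399), and M differed from A-C by -0.30 (adjusted p = 0.710). M against C passed the threshold without A-C replicate 12 (adjusted p = 0.0384), a library of neither group that enters the shared estimate of spread, and when only M and C were fitted (0.0481). A-C against C was -0.053 when A-C replicate 12 was left out and -0.50 when replicate 6 was, and M against A-C was then -0.56 and -0.11. In the TPM as deposited the fold change was -0.33 in M against C and -0.08 in A-C against C. Alb transcripts alone were 5.47%, 4.99% and 6.73% of TPM in M, 8.43%, 7.82% and 4.71% in A-C, and 6.79%, 7.47% and 7.27% in C.

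Afm and Gc belong to the same gene family as Alb and lie near it on chromosome 5 in mm10. Alb spans 90460897 to 90476602, Afm starts 42.3 kb after its end with Afp between them, and Gc ends 1003 kb before it on the opposite strand. Afp, the fetal member of the family, was at 1.04 ± 0.22 TPM in M, 1.44 ± 0.20 in A-C and 1.22 ± 0.22 in C. Afm had 133, 97.4 and 123 TPM in M, 157, 124 and 83.6 in A-C, and 99.9, 129.8 and 154 in C. Its groups overlapped in every comparison, with a log2 fold change of -0.11 in M against C (95% interval -0.68 to 0.46). Gc had 7582, 8418 and 8962 TPM in M, 8591, 7804 and 7394 in A-C, and 7556, 8308 and 7804 in C. These were the narrowest intervals among the 10 genes, at -0.27 to 0.42 around 0.07 in M against C and -0.34 to 0.35 around 0.01 in A-C against C. In the TPM as deposited, Gc was higher in M than in C by 0.35 (limma's adjusted p = 0.106) and in A-C by 0.24 (0.275). There both groups lay above C without overlap. In the scaled values, the neighbours Alb, Afm and Gc had different fold changes in M against C, of -0.61, -0.11 and 0.07, although the difference between genes was not tested.

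Ttr, the transthyretin gene on chromosome 18, had 11434, 11241 and 11337 TPM in M, 14903, 12086 and 7740.0 in A-C, and 16062, 19284 and 17436 in C. Every M and every A-C library was below every C library, and the M libraries lay inside the range of A-C. The log2 fold change was -0.63 in M against C (SE 0.24, adjusted p = 0.0955), -0.65 in A-C against C (SE 0.24, adjusted p = 0.0882) and 0.02 in M against A-C (adjusted p = 0.984). It passed in M against C without A-C replicate 12 (0.0265) and with only M and C fitted (0.0313), and in A-C against C without A-C replicate 6 (-0.86, 0.0335). Without A-C replicate 12, A-C against C was -0.39 (adjusted p = 0.173). In the TPM as deposited the A-C and C libraries overlapped, and the fold change was -0.35 in M and -0.42 in A-C against C.

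Rbp4, whose product circulates bound to transthyretin, had 5970.4, 4186 and 4441 TPM in M, 9297, 6449 and 4797 in A-C, and 7152, 7013 and 7033 in C. The M libraries were all below the tight C group, and A-C spanned it. The log2 fold change was -0.56 in M against C (SE 0.25, adjusted p = 0.150) and -0.10 in A-C against C (SE 0.25, adjusted p = 0.807). M against A-C was -0.46 (adjusted p = 0.539), -0.69 when A-C replicate 12 was left out and -0.21 when replicate 6 was, and A-C against C was then 0.13 and -0.35. In the TPM as deposited M and C overlapped, at 4471 to 6551 TPM in M and 6199.8 to 6328 in C, with a log2 fold change of -0.28, and A-C against C had the opposite sign (0.13). The ratio of Ttr to Rbp4 within a library, which does not depend on scaling, was 1.92, 2.69 and 2.55 in M, 1.60, 1.87 and 1.61 in A-C, and 2.25, 2.75 and 2.48 in C. The A-C ratios were all below those of M and of C. Exact two-sided permutation tests gave p = 0.1 for M against A-C and for A-C against C, the smallest that 3 against 3 allows, and p = 0.8 for M against C, where the groups overlapped. These ratios are among 6 chosen after the values were seen, with 18 tests, and after Benjamini-Hochberg adjustment over them an exact p = 0.1 became 0.2.

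Serpina6, which encodes corticosteroid-binding globulin, had 214, 111 and 221 TPM in M, 405, 212 and 74.7 in A-C, and 463, 457 and 389.9 in C. It had the largest fold changes against C and the widest intervals of the 10 genes. All M libraries were below all C libraries, while A-C replicate 6 lay within the range of C. Means were 182 ± 62.0 TPM in M, 231 ± 166 in A-C and 437 ± 40.6 in C. The log2 fold change was -1.32 in M against C (SE 0.53, adjusted p = 0.116) and -1.22 in A-C against C (SE 0.53, adjusted p = 0.139). M against C passed without A-C replicate 12 (0.0243) and with only M and C fitted (0.0221), and A-C against C passed without A-C replicate 6 (-1.78, 0.0335). Without A-C replicate 12, A-C against C was -0.57 (adjusted p = 0.306). M differed from A-C by -0.10 (95% interval -1.31 to 1.11), and leaving out 1 library at a time gave -0.75 to 0.46.

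Ahsg, the fetuin-A gene, had 8254, 7293 and 7752 TPM in M, 13719.8, 10795.5 and 10798 in A-C, and 7341, 9805 and 9811 in C. All A-C libraries were above all libraries of both other groups, and M overlapped C. The log2 fold change was -0.59 in M against A-C (SE 0.19, unadjusted p = 0.0113, adjusted p = 0.273), 0.39 in A-C against C (SE 0.19, adjusted p = 0.168) and -0.20 in M against C (adjusted p = 0.472). Without C replicate 2, A-C against C was 0.25 and M against C -0.34, and M against C was -0.13 without C replicate 3 or 4. A-C against C passed in the TPM as deposited (0.62, adjusted p = 0.0395), where M against C had the opposite sign (0.08). Fetub, which encodes the related fetuin-B and was not among the 10, had 613, 600.1 and 656 TPM in M, 659.9, 613 and 649.7 in A-C, and 975, 822 and 728 in C. All its M and A-C libraries were below its C libraries, and its log2 fold change was -0.38 in A-C against C (adjusted p = 0.106) and -0.42 in M against C (adjusted p = 0.0815).

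The heavy chain gene Itih1 had 360.5, 283 and 314 TPM in M, 433, 404 and 374 in A-C, and 249, 315 and 323 in C. The A-C libraries were all above the others. Its log2 fold change was 0.45 in A-C against C (SE 0.16, adjusted p = 0.0812), -0.34 in M against A-C (adjusted p = 0.464) and 0.11 in M against C (adjusted p = 0.647). In A-C against C it passed in the TPM as deposited (0.68, adjusted p = 0.0214) and with a common total without mitochondrially encoded genes (adjusted p = 0.0289). Itih2, the other heavy chain, had 523, 353 and 437 TPM in M, 730.1, 584 and 679 in A-C, and 515, 617 and 593 in C. All M libraries were below all A-C libraries, at a log2 fold change of -0.61 (SE 0.18, unadjusted p = 0.00806, adjusted p = 0.251). Against C the values were -0.41 in M (adjusted p = 0.146) and 0.21 in A-C (adjusted p = 0.445), with overlapping groups. M against C was -0.26 without M replicate 26 and -0.13 in the TPM as deposited. A-C against C was 0.13 without A-C replicate 6 or C replicate 2 and 0.44 in the TPM as deposited.

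Ambp, the bikunin precursor gene, had 3709, 4893 and 4772 TPM in M, 3925, 4101 and 5138 in A-C, and 3050.4, 3673 and 3647 in C. Both M and A-C lay above C without overlap, by 0.36 (SE 0.19, adjusted p = 0.199) and 0.34 (SE 0.19, adjusted p = 0.225) on the log2 scale, and M differed from A-C by 0.02 (95% interval -0.40 to 0.44). M against C passed in the TPM as deposited (0.64, adjusted p = 0.0330), where A-C against C was 0.57. Without A-C replicate 12, A-C against C was 0.22. The ratio of Itih1 to Itih2 was 0.690, 0.801 and 0.718 in M, 0.593, 0.692 and 0.551 in A-C, and 0.483, 0.511 and 0.544 in C. Both M and A-C were above C (exact two-sided permutation p = 0.1 each, the smallest possible), and M and A-C overlapped (exact permutation p = 0.2). The ratio of Ambp to Itih2 was 7.10, 13.8 and 10.9 in M, 5.38, 7.03 and 7.56 in A-C, and 5.92, 5.96 and 6.15 in C, so that M replicates 26 and 27 stood highest. All M libraries were above all C libraries for this ratio (exact permutation p = 0.1), and A-C overlapped both M and C. Ambp to Itih1 gave 10.3, 17.3 and 15.2 in M, 9.07, 10.2 and 13.7 in A-C, and 12.3, 11.6 and 11.3 in C. These groups overlapped in every comparison. Alb to Afm gave 376, 480 and 511 in M, 535, 580 and 542 in A-C, and 784, 637 and 525 in C. M was below both other groups there (exact permutation p = 0.1 each), and A-C overlapped C. The ratio of Alb to Ambp was 13.4, 9.56 and 13.1 in M, 21.4, 17.5 and 8.82 in A-C, and 25.7, 22.5 and 22.2 in C, with both M and A-C below C (exact permutation p = 0.1 each).

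**Figure D3:**
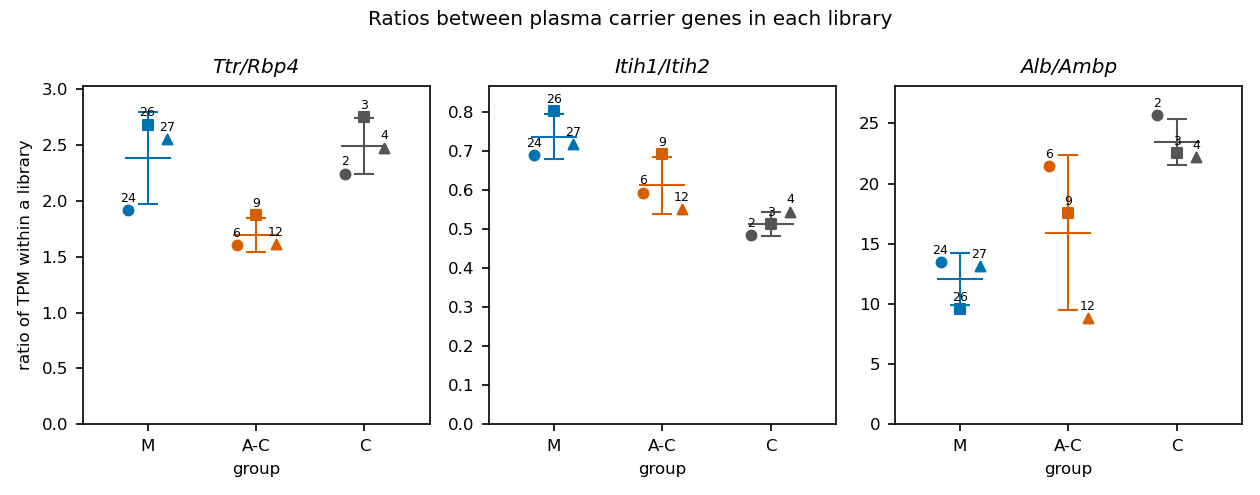
Ratios of TPM of Ttr to Rbp4, Itih1 to Itih2 and Alb to Ambp in each library, by group. Points are libraries, numbers their replicates, and bars the group mean ± SD (n = 3). The A-C libraries are lowest for Ttr to Rbp4, and the C libraries are lowest for Itih1 to Itih2 and highest for Alb to Ambp.

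Itih1 lies on chromosome 14 (30929180 to 30943289 in mm10) beside Itih3 and Itih4, heavy chain genes that the fixed lists also count as positive acute phase genes. Itih3 had 523, 834 and 669.7 TPM in M, 442, 868 and 1639 in A-C, and 332, 272 and 319 in C. It was called higher in A-C than in C by 1.48 (SE 0.41, adjusted p = 0.0388), a call lost without M replicate 26 or 27, A-C replicate 9 or 12 or any of the C libraries, without a filter or with only the groups compared (adjusted p up to 0.125). Itih4 had 1123, 4845 and 4834 TPM in M, 1177, 2926 and 5525 in A-C, and 539, 576 and 652 in C. It was called higher in M than in C by 2.34 (SE 0.65, adjusted p = 0.0435), a call lost without M replicate 26 or 27, A-C replicate 9 or any C library, or without a filter (adjusted p up to 0.154). In A-C against C it stood at 2.18 (adjusted p = 0.0511). Itih1 differed from C by 0.11 in M and 0.45 in A-C, and these neighbours by 1.11 to 2.34, a difference between genes that was not tested.

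Values inside A-C and M were set beside the acute phase share of each library. A-C replicate 12, with the highest share of its group, was the lowest A-C library for 7 of the 10 genes, against 41.5% of all tested genes. M replicate 26, with the highest share in M, was the lowest M library for 8 of 10, against 30.4%. Both held for Alb, Ttr, Rbp4, Serpina6, Itih1 and Afm, 6 of 10 beside 20.1% of all genes. Ambp was the 1 gene highest in both, beside 18.3% of all. M replicate 24, with a share of 3.48%, was the lowest M library for Gc and Ambp. Alb was lower there (49858 TPM) than in M replicate 27 (62727 TPM, share 11.7%). The M libraries of Ttr spanned 11241 to 11434 TPM. Serpina6 in A-C ran in the reverse order of the share, at 405 TPM with a share of 2.85%, 212 with 8.26% and 74.7 with 21.3%. Alb, Ttr, Rbp4, Gc, Itih1 and Afm had that reverse order in A-C as well, and Ahsg, Itih2 and Ambp did not. In M, Serpina6 did not follow it, at 214 TPM with 3.48%, 111 with 15.7% and 221 with 11.7%. Alb, Gc and Ambp did not either, whereas Ttr, Rbp4, Ahsg, Itih1, Itih2 and Afm did. The share of all tested genes with the reverse order in A-C or in M was not computed, so the members cannot be set against it. The part of the acute phase share in these values was not tested.

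**Figure D4:**
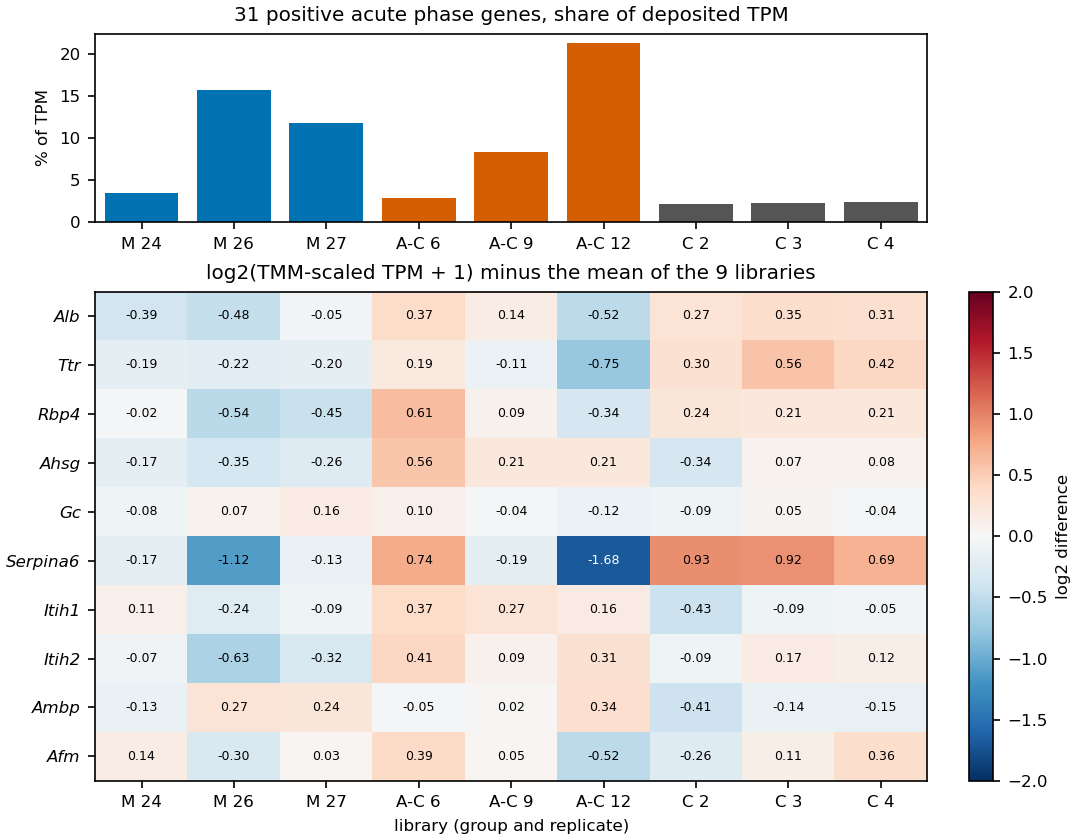
Upper panel, share of deposited TPM in the 31 positive acute phase genes for each of the 9 libraries; lower panel, log2 level of each of the 10 genes minus its mean over the libraries. A-C replicate 12 and M replicate 26 carry the highest shares of their groups and their groups' lowest values for most of the 10 genes, whereas Ambp is highest there.

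The genes whose levels ran most like the mean of the 10 centred profiles over the 9 libraries were Slc6a13 (Pearson r = 0.971), Serpinc1 (0.965), Acsl5 (0.962), Phb (0.957), Necab1 (0.946) and Abca8b (0.936), out of 4735 genes. The libraries share their scaling and groups, so these values are a description. The 10 genes did not all run alike, so their mean does not stand for each of them. Over their 45 pairs r had a median of 0.30, from -0.85 (Serpina6 and Ambp) to 0.93 (Ttr and Serpina6). Serpinc1, which encodes antithrombin, averaged 465 ± 32.5 TPM in M, 581 ± 121 in A-C and 590.4 ± 41.6 in C. Slc6a13, a transporter for GABA and taurine, averaged 90.2 ± 13.6 TPM in M, 136 ± 53.1 in A-C and 155 ± 13.1 in C.

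Over all tested genes, 9.29% were called higher and 6.77% lower in M against C, 9.65% higher and 7.17% lower in A-C against C, and 0.0361% higher and 0.135% lower in M against A-C. Of 14 relatives of the 10 genes, 1 was higher and 3 were lower in M against C, 1 was higher and 2 were lower in A-C against C, and 0 were called between M and A-C by limma (2 at an unadjusted p under 0.05). Their median log2 fold change was -0.25 in M against C, 0.01 in A-C against C and -0.23 in M against A-C, beside the medians of all genes given above. Serpina1e, one of a set of near-identical alpha-1-antitrypsin genes whose reads the counting could split, had 3029, 952 and 1045 TPM in M, 3075, 3489 and 2425 in A-C, and 5676, 17339 and 22945 in C. It fell by 3.18 in M against C (adjusted p = 0.0134, lost without M replicate 27 or C replicate 3, up to 0.0676). Its A-C value was -2.15 (adjusted p = 0.0348), lost without any of the A-C libraries or C replicate 3 or 4, or without a filter (up to 0.119). Serpina1a was also lower in M, at -1.11 (adjusted p = 0.0107, lost without M replicate 27 or C replicate 3, up to 0.0608).

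Of 19 other constitutive plasma proteins, 2 were higher and 1 was lower in M against C (median -0.19), and 2 were higher and 2 lower in A-C against C (median -0.07). Between M and A-C limma called 0, with 1 at an unadjusted p under 0.05 (median -0.04). Fetub and Serpina10 stand in this list and among the relatives, and Apoa1 and Hnf4a also stand among the hepatocyte markers. Spp1 stands among both the positive acute phase genes and the cholangiocyte markers. Apoa1, the main protein of HDL, had 12630.2, 8512 and 8481 TPM in M, 20278, 15938 and 16385 in A-C, and 35978, 35999 and 29539 in C, with no overlap among the groups. It fell by 1.80 in M against C (SE 0.21, adjusted p = 0.00290, held under all 15 alternatives) and by 0.95 in A-C against C (SE 0.21, adjusted p = 0.0212, lost without A-C replicate 9, C replicate 2 or C replicate 3, up to 0.0857). Plg, the plasminogen gene, had 1004, 861 and 1013 TPM in M, 933, 839 and 967 in A-C, and 395, 522 and 574 in C. It rose by 0.96 in M against C (adjusted p = 0.0136, lost without M replicate 27 or C replicate 3, up to 0.0676) and by 0.89 in A-C against C (adjusted p = 0.0143, lost without A-C replicate 9 or C replicate 3, up to 0.0563). The others called were Cpn2, higher in M by 0.74 (adjusted p = 0.0487), Serpinf2, higher in A-C by 0.65 (0.0292), and Proc, lower in A-C at -0.75 (0.0387). Cpn2 was lost without any M or C library or A-C replicate 6 or 9, without a filter or with median-of-ratios scaling (up to 0.152). Serpinf2 was lost without A-C replicate 9 or 12 or C replicate 2 or 3, or with only the groups compared (up to 0.0995). Proc was lost without those libraries, C replicate 4 or M replicate 26 or 27 (up to 0.131). It was also lost in the TPM as deposited (0.0953), with a common total without mitochondrially encoded genes, without a filter and with only the groups compared.

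Among 20 liver transcription factors, 4 were higher and 0 lower in M against C (median 0.07), 3 were higher and 2 lower in A-C against C (median 0.10), and limma called 0 between M and A-C (3 at an unadjusted p under 0.05, median 0.15). Stat3, which transmits the interleukin 6 signal, had 35.5, 41.6 and 71.1 TPM in M, 28.0, 49.9 and 50.9 in A-C, and 11.2, 13.1 and 13.1 in C. It rose by 1.84 in M against C (SE 0.29, adjusted p = 0.00932) and by 1.66 in A-C against C (SE 0.29, adjusted p = 0.0106), and both held under all 15 alternatives. Hnf4a was higher in M by 0.74 (0.0450, lost without M replicate 26 or 27, A-C replicate 9 or any C library, or without a filter, up to 0.160). Rxra was higher in M by 0.67 (0.0225, lost without M replicate 27 or C replicate 2 or 3, up to 0.0907) and in A-C by 0.76 (0.0141, lost without A-C replicate 9 or C replicate 3, up to 0.0726). The factors lower in A-C were the clock-driven Dbp, at -3.17 (0.0164, lost without A-C replicate 9 or C replicate 3, up to 0.0691), and the bile acid receptor gene Nr1h4, at -0.46 (0.0480). The Nr1h4 call was lost without any 1 of the 9 libraries (up to 0.114), in the TPM as deposited (0.251), with a common total without mitochondrially encoded genes (0.141), without a filter and with only the groups compared.

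The positive acute phase list had 11 of 30 tested genes higher and 1 lower in M against C (median 2.23), 10 higher and 0 lower in A-C against C (median 2.05), and 0 called between M and A-C (3 at an unadjusted p under 0.05, median 0.16). The 1 lower was Hamp, the hepcidin gene, at -3.63 (adjusted p = 0.0428), lost without M replicate 26 or 27, A-C replicate 9 or any C library, without a filter or with only the groups compared (up to 0.122). Markers of cells other than hepatocytes also moved with the groups. Endothelial markers were called higher for 2 of 10 in M against C and 7 of 10 in A-C against C, and summed to 86.4 to 128 TPM in M, 169 to 179 in A-C and 62.5 to 103 in C. Kupffer cell markers were called higher for 1 of 10 in M and 4 of 10 in A-C, and summed to 231 to 258 TPM in M, 276 to 378 in A-C and 163 to 247 in C. Stellate cell markers had 2 of 10 higher and 2 lower in M and 2 higher and 1 lower in A-C, with sums of 204 to 222, 249.99 to 319 and 188 to 317 TPM in M, A-C and C. B and plasma cell markers were lower for 3 of 3 tested in both, and summed to 5.95 to 10.1 TPM in M, 7.76 to 9.06 in A-C and 34.3 to 47.0 in C. Neutrophil markers summed to 4.26 to 60.4 TPM in M, 3.51 to 55.3 in A-C and 0.986 to 5.80 in C, with 0 of 3 called (2 in M and 0 in A-C at an unadjusted p under 0.05). Erythroid markers were lower for 2 of 4 in A-C and for 0 of 4 in M. Limma called 0 of 4 cholangiocyte markers and 0 of 1 T and NK cell marker, with 0 at an unadjusted p under 0.05. Between M and A-C limma called 0 markers of these other cells, although 9 of 10 endothelial and 3 of 4 erythroid markers had an unadjusted p under 0.05. The part of these cells in the values of the 10 genes was not tested.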

How the data were processed

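Libraries were made with a commercial kit from total RNA of mouse liver taken up in Trizol, per the labels' protocols. The submitters' processing notes name the genome build mm10. Which aligner, counter, annotation and strand setting were used is not given in the sources used here. A single table was deposited by the authors with TPM values, reads per exon length scaled to a common total, with gene IDs, symbols, exon lengths and coordinates per the file headers. Of its 32248 lines, 452 repeat 168 gene IDs with identical values, and 1 line per ID was kept, which left 31964. TPM times exon length came within 0.1 of whole multiples of a library step for 99.965% to 99.994% of values, which gave the reads per library. These served for depth and for TMM factors (trims of 30% and 5%). Every pair of libraries differed beyond sampling noise, in at least 5005 genes.

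Genes with a TPM of at least 1 in at least 3 of 9 libraries were tested with limma 3.58.1 (R 4.3.3) on log2(TMM-scaled TPM + 1), all 9 libraries in 1 fit with 6 residual degrees of freedom, with trend and robust moderation and Benjamini-Hochberg adjustment at 0.05. The 10 genes, the 13 further lists and the tests were chosen with earlier results of these data known. The genes named are the 10, called genes of the lists (up to 4 by size per list and comparison) and the 6 genes most like the mean of the 10. Fetub, Afp, Itih3, Itih4, Nr1h4, Serpina10 and Spp1 were also named as relatives, neighbours, genes shared between lists or members of a short count, after their values were seen. Ratios were tested by exact permutation (scipy 1.17.1, Python 3.11.15). Promoter windows are RefSeq's. The fit was tested on simulated data, and the outcome is not reported here. Alternatives were the TPM as deposited, other scalings, no filter, fits of 2 groups and leaving out each library. Tf was not analysed here. Some listed genes are counted but their own results are not reported here.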

Additional observations from a re-analysis of the deposited data

How the results depend on the processing

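No paired analysis was possible because the groups share no replicate numbers. Of 450 alternative values for the 10 genes, 405 kept their direction and side of the threshold, 12 passed the threshold newly and 33 reversed, all among 10 of 30 fold changes whose reported size was at most 0.20. For each the cause was not tested.

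In the TPM as deposited, 1 of the 10 genes was called in M against C (Ambp, adjusted p = 0.0330) and 2 in A-C against C (Itih1, 0.0214, and Ahsg, 0.0395). With a common total without mitochondrially encoded genes, 1 was called in A-C against C (Itih1, 0.0289). With only the 2 groups compared, 3 were called in M against C (Alb, Ttr and Serpina6). Leaving out 1 library gave 0 to 3 calls in M against C (3 without A-C replicate 12) and 0 to 2 in A-C against C (2 without A-C replicate 6).

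Over all genes, M against C had 1781 calls, 3282 with the deposited TPM, 1086 with no filter and 184 to 2506 without 1 library. A-C against C had 1865, and 310 to 2186 without 1 library. M against A-C had 19, 6 without a filter, 2 with only the 2 groups and 3 to 30 without 1 library. The share of calls that were higher was 57.8% in M against C and 57.4% in A-C against C, against 89.3% and 85.5% in the TPM as deposited.

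Reversed log2 fold changes in the TPM as deposited were 0.0808 for Ahsg and 0.17 for Afm in M against C, 0.0364 for Afm in M against A-C, and 0.13 for both Rbp4 and Afm in A-C against C. Without mitochondrially encoded genes they were 0.0583 for Afm in M against C, 0.0344 for Afm in M against A-C, and 0.0244 for Rbp4 and 0.0239 for Afm in A-C against C. Gc in A-C against C was -0.00877 with median-of-ratios scaling and -0.0103 with only 2 groups, and Afm in M against A-C was 0.00428 with only 2 groups. Without 1 library, M against C ranged over -0.00642 to 0.20 for Itih1 and -0.28 to 0.0338 for Afm. M against A-C ranged over -0.24 to 0.23 for Ttr, -0.75 to 0.46 for Serpina6, -0.0530 to 0.15 for Ambp and -0.26 to 0.19 for Afm. A-C against C ranged over -0.35 to 0.13 for Rbp4, -0.0535 to 0.0547 for Gc and -0.31 to 0.15 for Afm.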
